A study of Mus musculus with 6 samples.

Results

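The 9 genes described here encode core parts of T cell receptor signalling: Cd3d, Cd3e, Cd3g, Cd247, Lck, Zap70, Lat, Cd2 and Thy1. They were taken by gene symbol from a table of 54532 annotated genes, and all 9 were found and were among the 14174 genes that passed the filter on low counts. The table held RNA-seq counts of 6 libraries of mouse dendritic cells, cells that show antigen to T cells. There were 3 control libraries, labelled as dendritic cells without the compound, and 3 libraries of dendritic cells treated with DB2313, a small molecule that the study used as an inhibitor of the transcription factor Spi1 (also called PU.1). All groups shared the same culture medium with serum and antibiotics. The labels stated no strain, age, dose or duration of treatment, and the study's text spoke of macrophages where the labels spoke of dendritic cells. The columns of the treated libraries were named after Spi1, so every direction given here rests on reading them as the DB2313 libraries. Nothing in the labels said that the libraries came from separate cultures or animals, so p-values measure only the spread between these libraries.

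In a T cell, the antigen receptor binds its ligand through variable chains that have no signalling part of their own. The invariant chains CD3 delta, epsilon and gamma and the zeta chain, encoded by Cd3d, Cd3e, Cd3g and Cd247, carry the signal through tyrosine motifs in their tails. The kinase Lck phosphorylates these motifs, the kinase ZAP-70 docks on them, and ZAP-70 then phosphorylates the adaptor LAT, on which the downstream enzymes assemble. CD2 is an adhesion receptor of T and natural killer (NK) cells, and Thy1 is a surface protein of mouse T cells that other cells can carry too. Dendritic cells are not known to assemble this receptor. In bulk RNA, fewer cells of a type and less RNA per cell cannot be told apart.

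The 9 genes were all measured well above 0 in every library. The lowest count was 98, for Cd247 in control replicate 1, and the highest was 1706, for Thy1 in DB2313 replicate 2. None differed between the groups by more than the spread between libraries. The larger differences lay between libraries of the same group: DB2313 replicate 1 had the highest level of all 6 libraries for 9 of the 9 genes, and DB2313 replicate 3 had the lowest level of its group for 8 of them.

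The chains of the receptor complex came first. Cd3d, Cd3e and Cd3g lie next to each other on chromosome 9 within 40056 bp, and Cd3g and Cd3d start 1355 bp apart on opposite strands. In the GRCm38 build, Cd3g (ENSMUSG00000002033) ran from chr9:44969572-44980431 on the minus strand, Cd3d (ENSMUSG00000032094) from chr9:44981786-44987339 on the plus strand, and Cd3e (ENSMUSG00000032093) from chr9:44998740-45009627 on the minus strand. Cd247 (ENSMUSG00000005763) lies apart from them at chr1:165788681-165877277 on the plus strand. Exons of Cd3e overlapped those of Gm48719 on the other strand, and exons of Cd247 overlapped those of Gm16565 and, on the other strand, of Pou2f1. The strandedness of the libraries was not given in the sources used here, so reads of these overlaps cannot be assigned with certainty.

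DB2313 is directed at a factor of the ETS family, whose members bind around the core GGAA, and the CD3 genes varied together across the libraries. The 250 bases before the start of these 4 genes and of Lck are therefore shown, searched for AGGAAG, a longer form of that core. They come from the RefSeq promoter table (GRCm38.p6), which held 10 starts for 7 of the 9 genes and none for Thy1 and Cd2. Capitals mark AGGAAG, or CTTCCT where these letters lie on the other strand. Each sequence is given in the direction of transcription. The Cd3d sequence is chr9:44981536-44981785 (plus strand), the Cd3e sequence chr9:45009612-45009861 (minus strand), the Cd3g sequence chr9:44980432-44980681 (minus strand), the Cd247 sequence chr1:165788431-165788680 (plus strand), and the Lck sequence chr4:129573642-129573891 (minus strand, the farther upstream of its 2 listed starts).
Cd3d: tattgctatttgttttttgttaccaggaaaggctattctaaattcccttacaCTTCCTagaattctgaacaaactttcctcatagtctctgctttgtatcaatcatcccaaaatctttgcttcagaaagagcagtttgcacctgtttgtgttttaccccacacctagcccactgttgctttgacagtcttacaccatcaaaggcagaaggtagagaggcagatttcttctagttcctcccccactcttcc
Cd3e: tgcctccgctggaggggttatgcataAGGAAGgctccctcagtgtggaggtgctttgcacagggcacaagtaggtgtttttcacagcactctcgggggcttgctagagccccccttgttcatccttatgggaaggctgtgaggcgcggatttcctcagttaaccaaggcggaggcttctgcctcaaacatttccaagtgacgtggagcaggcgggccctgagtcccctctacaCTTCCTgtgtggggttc
Cd3g: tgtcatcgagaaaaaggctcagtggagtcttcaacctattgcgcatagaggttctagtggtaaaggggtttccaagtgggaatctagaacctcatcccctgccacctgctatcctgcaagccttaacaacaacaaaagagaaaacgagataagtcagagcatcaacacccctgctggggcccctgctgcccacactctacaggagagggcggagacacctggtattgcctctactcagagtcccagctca
Cd247: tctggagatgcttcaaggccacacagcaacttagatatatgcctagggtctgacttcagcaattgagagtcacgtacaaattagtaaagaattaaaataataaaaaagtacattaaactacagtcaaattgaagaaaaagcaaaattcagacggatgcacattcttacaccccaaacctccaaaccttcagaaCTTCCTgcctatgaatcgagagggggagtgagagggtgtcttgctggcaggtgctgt
Lck: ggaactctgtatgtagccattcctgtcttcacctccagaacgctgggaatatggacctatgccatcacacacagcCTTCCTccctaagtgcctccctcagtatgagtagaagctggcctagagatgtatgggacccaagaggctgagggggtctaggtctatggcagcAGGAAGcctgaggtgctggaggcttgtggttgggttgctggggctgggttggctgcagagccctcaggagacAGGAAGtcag
AGGAAG was present before 8 of the 10 listed starts, against 29.5% of the 32851 promoters in the table. Of these starts, Zap70 had 3 and Lck 2, so the 10 starts are not separate genes. Cd3d and Cd247 held 1 copy, Cd3e held 2 copies, Lck held 3 copies, and Cd3g held none. The shorter GGAA was neither marked nor counted, and it occurs in the Cd3g window too. The RefSeq start of Cd3e lies inside the gene as listed above, which reaches to 45009627. The last bases of its window, with part of the copy nearest the start, thus fall within that gene. The longer letters GAGGAAGT, of the kind that PU.1 prefers, were before 0 of the 10 starts on either strand, against 2.44% of all promoters. The letters TGTGGT, the core of RUNX factors, were before 2 of the 10 (14.0% of all), and the palindrome CAGCTG, bound by E proteins, before 0 of the 10 (13.0% of all). The searched motifs were read on both strands, GAGGAAGT contains AGGAAG, and a match in these windows is a description of letters only.

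Levels are given as CPM, the count of a gene scaled to the TMM-adjusted size of its library. Cd3d had 27.8, 26.7 and 33.4 CPM in control replicates 1 to 3, and 44.3, 36.4 and 25.9 CPM in DB2313 replicates 1 to 3. DB2313 replicates 1 and 2 lay above every control library, while replicate 3 lay below every one of them. The log2 fold change was 0.28 ± 0.15 (SE, n = 3 per group), with an adjusted p of 0.303 in edgeR's quasi-likelihood test over all genes tested. Cd3d was the member that turned on a single library: leaving out DB2313 replicate 3 gave 0.46 on the log2 scale and an edgeR adjusted p of 0.00623. In that comparison 1 of the 9 genes was called, where 16.6% of all genes tested were called and 7.55% were called higher.

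Cd3e had 13.6, 20.1 and 20.8 CPM in the controls and 23.7, 19.6 and 16.2 CPM with DB2313. Control replicate 1 was the lowest of the 6 libraries and DB2313 replicate 1 the highest, so the groups overlapped over most of their range. Its log2 fold change was 0.13 ± 0.17 (edgeR adjusted p = 0.715). Cd3g had 25.6, 25.4 and 27.2 CPM in the controls and 32.4, 26.0 and 23.1 CPM with DB2313. Its control libraries were the closest together of all 9 genes, with a coefficient of variation (CV) of 3.71%, while its DB2313 libraries spread over 17.6%. The log2 fold change of Cd3g was 0.06 ± 0.12 (edgeR adjusted p = 0.821).

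Cd247 was the least abundant member. It had 6.03, 7.15 and 7.97 CPM in the controls and 8.93, 7.82 and 6.31 CPM with DB2313. Again DB2313 replicate 1 was highest, and DB2313 replicate 3 lay between the lower controls. The log2 fold change was 0.13 ± 0.19 (edgeR adjusted p = 0.752), with a 95% interval from -0.27 to 0.52. The summed CPM of Cd3d, Cd3e and Cd3g put the same order in one value per library, at 67.0, 72.3 and 81.3 in the controls and 100.4, 82.0 and 65.1 with DB2313.

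**Figure D1:**
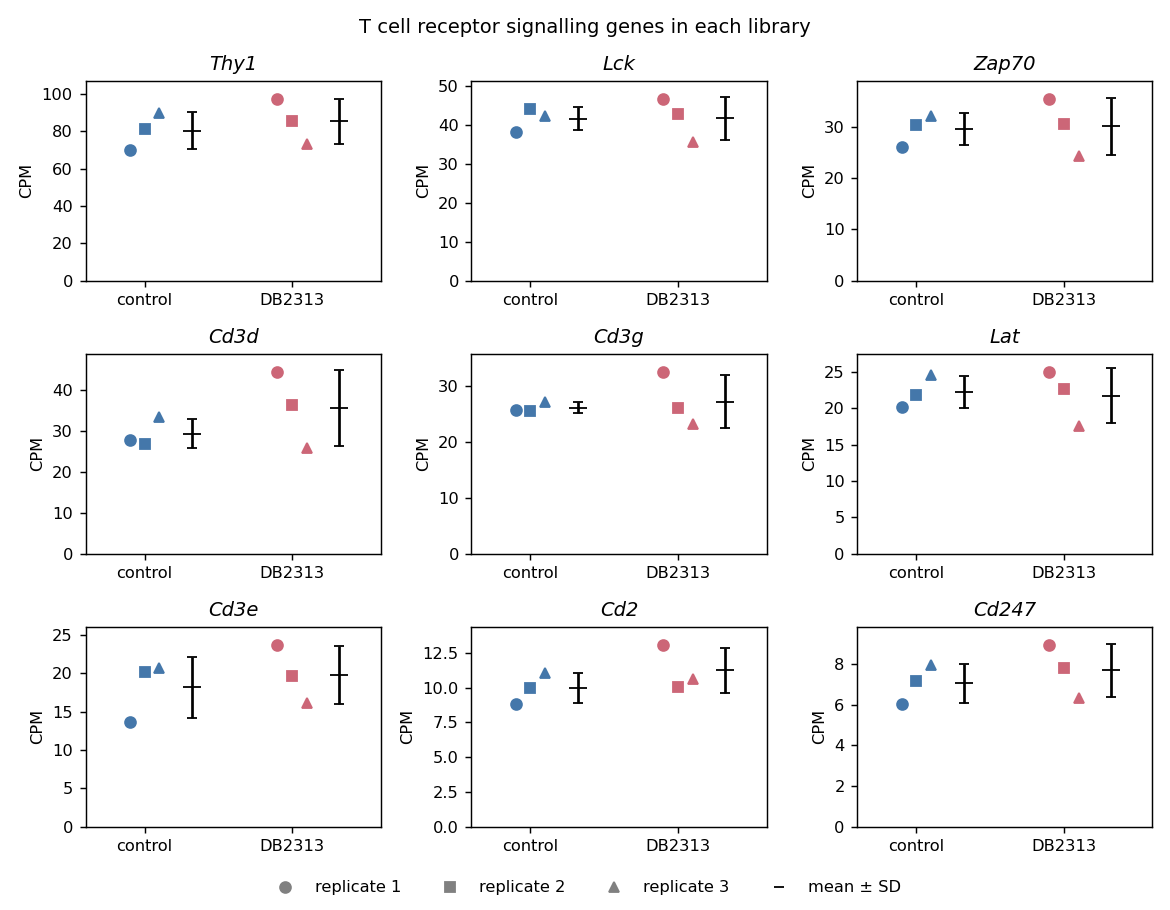
Level of each of the 9 genes in each library, in CPM (counts scaled to library size, linear axis from 0); blue points are control and red points DB2313 libraries, the shape gives the replicate number, and the black bar is the mean ± SD of 3 libraries. DB2313 replicate 1 (red circle) is the highest point in all 9 panels, and DB2313 replicate 3 (red triangle) is the lowest red point in every panel except that of Cd2.

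The kinases and the adaptor were also highest in DB2313 replicate 1 and lowest in DB2313 replicate 3, while the order of the other libraries varied. Lck (ENSMUSG00000000409, chr4:129548344-129573641, minus strand), the kinase that starts the signal, had 38.2, 44.0 and 42.3 CPM in the controls and 46.5, 42.8 and 35.6 CPM with DB2313. Its group means were almost equal, at 41.5 ± 3.00 and 41.6 ± 5.56 CPM (SD, n = 3 each). The log2 fold change was 0.0047 ± 0.11 (edgeR adjusted p = 0.985), with an interval in folds from 0.859 to 1.17. That sign has no weight, since it changed under 5 other settings of the fit and without each of 3 libraries. Its exons overlapped Mir8119.

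Zap70 (ENSMUSG00000026117, chr1:36761798-36782818, plus strand), the kinase that docks on the phosphorylated chains, had 26.1, 30.4 and 32.1 CPM in the controls and 35.4, 30.5 and 24.3 CPM with DB2313. DB2313 replicates 1 and 3 were the highest and the lowest of the 6 libraries. Its fitted log2 fold change was 0.03 ± 0.13 (edgeR adjusted p = 0.931). Lat (ENSMUSG00000030742, chr7:126363824-126369570, minus strand), the scaffold below ZAP-70, had 20.2, 21.8 and 24.6 CPM in the controls and 25.0, 22.6 and 17.6 CPM with DB2313. It was the one member with a fitted log2 fold change below 0, at -0.03 ± 0.13 (edgeR adjusted p = 0.928). Without control replicate 3 it was 0.05, and without DB2313 replicate 3 it was 0.10. Its exons overlapped Mir7058.

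The surface proteins closed the list. Thy1 (ENSMUSG00000032011, chr9:44043384-44048579, plus strand) had 70.0, 81.4 and 89.6 CPM in the controls and 97.3, 85.6 and 73.4 CPM with DB2313. Its fitted log2 fold change was 0.09 ± 0.11 (edgeR adjusted p = 0.689), and the control and DB2313 libraries alternated in order. Cd2 (ENSMUSG00000027863, chr3:101275899-101287939, minus strand) had 8.85, 9.97 and 11.0 CPM in the controls and 13.1, 10.0 and 10.6 CPM with DB2313. It was the one gene for which DB2313 replicate 2, rather than 3, was the lowest of its group. Its log2 fold change was 0.17 ± 0.16 (edgeR adjusted p = 0.565).

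Across the 9 genes, 0 were called at an adjusted p under 0.05 in edgeR, where 10.6% of all genes tested were called, 4.66% higher and 5.94% lower with DB2313. At an unadjusted p under 0.05 there were also 0 of 9, against 23.3% of all genes, and DESeq2 called 0 of 9, against 10.4%. For 0 of the 9 genes did the groups of 3 libraries separate without overlap, against 27.4% of all genes tested. The median log2 fold change of the 9 genes was 0.09, and 8 of them were above 0. Over all genes tested the median was 0.00082, and 7108 of 14174 were above 0. The 9 genes varied together in the same libraries, so their signs are not separate observations. Without DB2313 replicate 1, Cd3d, Cd2 and Cd247 stayed above 0 and the other members were below it. The 95% intervals of the 9 genes allowed folds from 0.806 (Lat) to 1.52 (Cd3d), and changes within each interval could not be told from none.

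**Figure D2:**
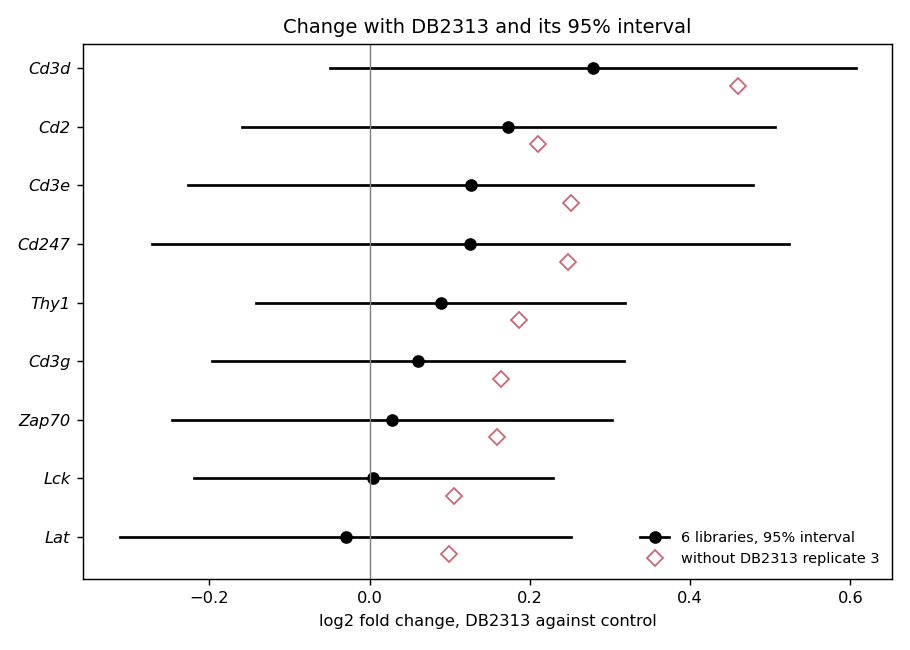
Log2 fold change of each gene, DB2313 against control: black points with bars are the fitted values and 95% intervals from all 6 libraries, and open diamonds are the values without DB2313 replicate 3. Every bar crosses 0, and every diamond lies to the right of its point, farthest for Cd3d at 0.46.

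The spread between DB2313 libraries exceeded that between controls for most of these genes. The chi-square statistic of the counts per degree of freedom, which is near 1 for counting noise alone, had a median of 3.54 in the controls and 12.3 in the DB2313 libraries over the 9 genes. For the 7120 tested genes in the same range of mean counts the medians were 2.46 and 3.88. The CV of the 9 genes had a median of 11.0% in the controls and 17.3% with DB2313, against 7.26% and 9.15% for those 7120 genes. The statistic was over 3 for 9 of the 9 genes with DB2313 and for 6 of 9 in the controls, where it was 0.573 for Cd3g, 1.93 for Cd2 and 2.17 for Cd247. Cd3d spread most with DB2313, with a CV of 26.0%, and Lck least, with 13.4%.

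The same libraries were high or low for most of the 9 genes. The summed CPM of the 9 genes was 236.3, 267.0 and 288.8 in the controls and 326.5, 281.3 and 233.0 with DB2313. Within the controls, replicate 1 was lowest for 7 of the 9 genes and replicate 3 highest for 8 of them. Over all genes tested, control replicate 1 was the lowest control for 33.8%, DB2313 replicate 3 the lowest of its group for 36.6%, and DB2313 replicate 1 the highest of all 6 libraries for 21.7%. The ratio of DB2313 replicate 1 to replicate 3 ran from 1.23 for Cd2 to 1.71 for Cd3d, with a median of 1.41, where all genes tested had a median of 0.997. That DB2313 replicate 2 lay between the other two is seen in its ratio to replicate 3, with a median of 1.21.

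The makeup of the set was steadier for some genes than for others. Thy1 held between 29.6% and 31.5% of the summed CPM in each of the 6 libraries, Zap70 between 10.4% and 11.4%, and Cd247 between 2.55% and 2.78%. Cd2 ran from 3.57% to 4.57%. Cd3d ran from 10.0% in control replicate 2 to 13.6% in DB2313 replicate 1, and Cd3e was lowest in control replicate 1, at 5.75%, against 6.94% to 7.54% in the other libraries.

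The difference between DB2313 replicates 1 and 3 varied with gene length and base composition. Over all genes tested, the median ratio of DB2313 replicate 1 to 3 was 1.13 in the shortest of 5 equal groups of genes by length and 0.878 in the longest. By GC content it was 0.950 in the lowest of 5 groups and 1.06 in the highest. The 9 genes had a median length of 2992 bp, against 3988 bp for all genes tested, and 7 of them were in the 2 shortest groups. Of these, 5 were in the longer of those 2 groups, where the median ratio over all genes tested was 1.07. The median GC content of the 9 genes was 50.9%, against 49.6% for all genes tested. With a smooth offset for GC alone, the median ratio of the 9 genes was 1.36. The ratio then rose for Cd3d, Cd3e, Cd3g and Cd247 and fell for the other members. With smooth offsets for both length and GC, the median ratio was 1.33, with a range from 1.09 to 1.53. Both of these alternatives were added after the data were seen. The results that follow are with both offsets. DB2313 replicate 1 was then the highest of its group for 9 of the 9 genes and of all 6 libraries for 7, since a control library lay above it for Lck and Lat. DB2313 replicate 3 was the lowest of its group for 8.

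**Figure D3:**
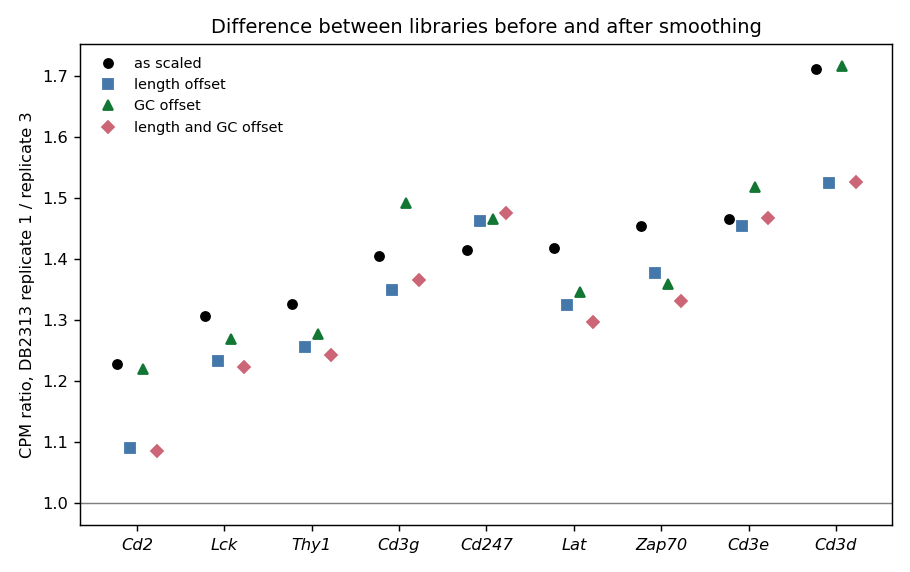
Ratio of CPM in DB2313 replicate 1 to that in DB2313 replicate 3 for each gene (linear axis, not from 0, with a line at 1), as scaled and with smooth offsets for gene length, GC content or both. All points lie above 1, and the median of the 9 genes goes from 1.41 as scaled to 1.33 with both offsets.

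Levels of different genes were compared per length, as CPM per kilobase (kb) of the gene length in the table. In the controls Thy1 was highest, at 26.8 ± 3.30 CPM per kb (SD, n = 3), followed by Cd3d at 16.1 ± 1.97 and Lck at 14.2 ± 1.03, whose libraries overlapped. Zap70 (9.86 ± 1.03), Lat (8.02 ± 0.799) and Cd3g (7.97 ± 0.296) formed the next step, each overlapping its neighbour. Cd2 (5.72 ± 0.628) and Cd3e (4.45 ± 0.974) overlapped as well, and Cd247 was lowest at 1.32 ± 0.183. With DB2313 the order was the same except that Cd3g and Lat, which overlapped, changed places. Of the chains that sit together in one complex, Cd3d was thus 2.98 to 4.60 times the level of Cd3e per kb in the 6 libraries, and Cd3g 1.57 to 2.35 times.

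The antigen-binding chains of the receptor were read as well. Trbc2, a constant region of the beta chain, had 33.6, 32.4 and 33.8 CPM in the controls and 53.3, 42.0 and 28.8 CPM with DB2313. Trac, the constant region of the alpha chain, had 25.3, 29.2 and 26.6 CPM in the controls and 41.2, 29.2 and 23.7 CPM with DB2313. In both, DB2313 replicate 1 was again the highest and replicate 3 the lowest of the 6 libraries. Trbc1, the other beta chain constant region, was also highest in DB2313 replicate 1, but control replicate 1 was its lowest library. The ratio of DB2313 replicate 1 to 3 was 1.85 for Trbc2, 1.74 for Trac and 1.13 for Trbc1. These genes are short, at 692, 935 and 749 bp. With the smooth offset for length the ratios were 1.61, 1.52 and 0.987, and DB2313 replicate 1 was the lowest of its group for Trbc1. The log2 fold changes were 0.32 for Trbc2 and 0.21 for Trac (edgeR adjusted p = 0.244 and 0.455), and without DB2313 replicate 3 they were 0.52 and 0.38 (edgeR adjusted p = 0.00116 and 0.0366). Trbc2 also passed the threshold with no filter on low counts. Of 16 other settings, Trbc2 thus passed under 2 and Trac under 1. Without DB2313 replicate 1, Trbc2 was 0.098 (edgeR adjusted p = 0.722) and Trac was -0.026.

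Of the 8 constant regions of the 4 receptor chains, 7 passed the filter and 0 were called. Their summed CPM was 90.1, 92.5 and 93.1 in the controls and 133.8, 109.8 and 82.1 with DB2313. Trdc, of the delta chain, was near 0, at 0.768 ± 0.416 and 0.681 ± 0.299 CPM (SD, n = 3 each), and Trac was 107 to 351 times its level per kb in the 6 libraries, on 5 to 19 counts of Trdc. Trgc2, a gamma chain constant region listed under the symbol Tcrg-C2, had 9.54 ± 0.759 and 11.2 ± 2.46 CPM. Of 144 variable segments in the table, 89 had at least 1 count and 45 at least 10 counts over the 6 libraries. Of the counts on Trbv segments, 18.0% fell on Trbv13-2, the segment with the most counts. Unscaled counts on all variable segments were 334, 344 and 380 in the controls and 362, 521 and 403 with DB2313. On Trbv segments they were 181, 193 and 220 in the controls and 253, 337 and 234 with DB2313. On Trav segments they were 111, 103 and 110 in the controls and 64, 124 and 129 with DB2313. For Trav, DB2313 replicate 1 was thus the lowest library, unlike for Trac.

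The coreceptors decide which class of MHC molecule a T cell reads. Cd8a, of the class I coreceptor, had 26.9, 33.0 and 36.1 CPM in the controls and 48.6, 39.9 and 34.9 CPM with DB2313, and Cd4, of the class II coreceptor, had 1.56 to 3.10 CPM over the 6 libraries. Per kb, Cd8a was 15.9 to 24.8 times the level of Cd4, while some dendritic cells also carry Cd8a. The log2 fold change of Cd8a was 0.36 (edgeR adjusted p = 0.0889). It was 0.47 without DB2313 replicate 3 (edgeR adjusted p = 0.00653) and 0.37 with no filter (edgeR adjusted p = 0.0101). These were the only 2 of 16 other settings past the threshold. Without DB2313 replicate 1 it was 0.23 (edgeR adjusted p = 0.251), and without control replicate 1 it was 0.25 (edgeR adjusted p = 0.347). Cd8b1, the partner chain, had 7.50 ± 2.01 and 8.94 ± 1.82 CPM (SD, n = 3 each).

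**Figure D4:**
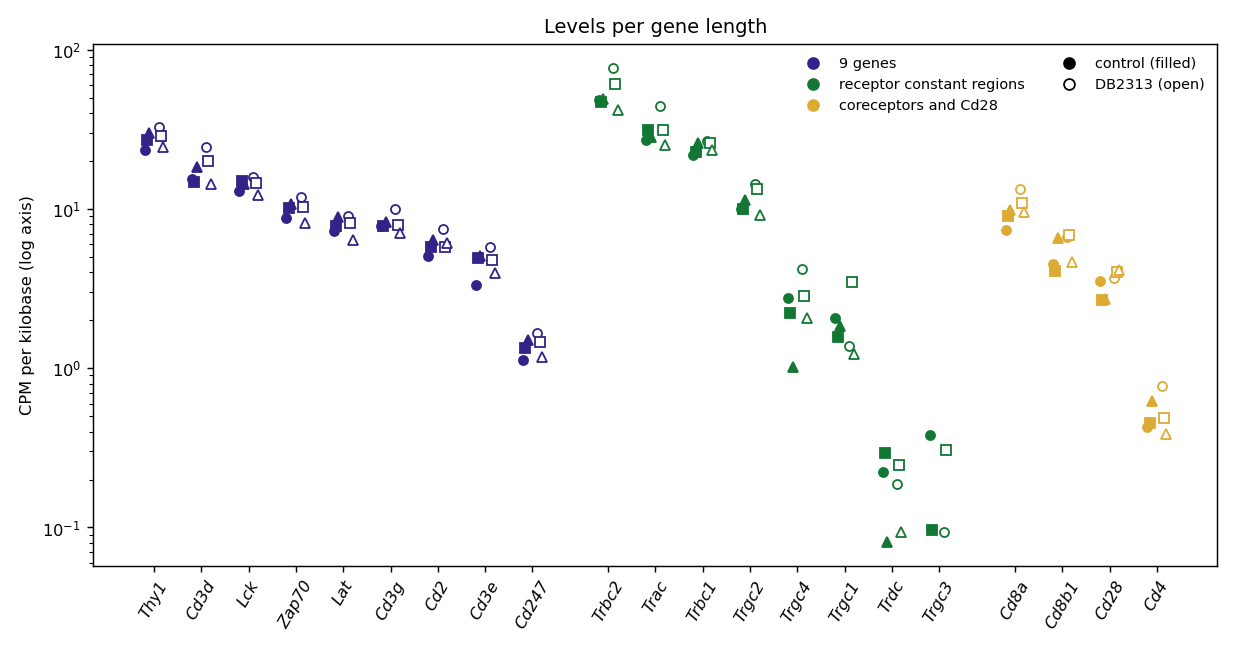
Level per gene length in each library, as CPM per kilobase on a log axis, for the 9 genes (purple), the constant regions of the receptor chains (green) and 4 coreceptors and costimulatory receptors (yellow); filled points are control and open points DB2313 libraries, with circles, squares and triangles for replicates 1, 2 and 3. Libraries in which Trgc3 was at 0 are not drawn, and Trac lies far above Trdc and Cd8a above Cd4.

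The rest of the pathway was described from lists of genes by role. Over 81 tested genes of these lists, 11 were called (13.6%, near the 10.6% of all genes tested), 6 higher and 5 lower with DB2313. Of 10 coreceptors and costimulatory receptors, 1 rose: Cd28, which gives the second signal beside the receptor, had 21.6, 16.5 and 16.6 CPM in the controls and 22.7, 24.5 and 25.4 CPM with DB2313. The log2 fold change was 0.41 ± 0.12 (edgeR adjusted p = 0.0458), DB2313 replicate 1 was the lowest rather than the highest of its group, and the call held under 10 of 16 other settings. Of 8 T cell transcription factors, 1 rose: Tox, a regulator of T cell development, had 15, 12 and 12 counts in the controls and 58, 61 and 29 counts with DB2313. Its log2 fold change was 1.77 ± 0.38 (edgeR adjusted p = 0.0076), on few counts.

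Of 26 kinases, adaptors and enzymes below the receptor, 0 rose and 2 fell. Rasgrp1, which passes the diacylglycerol signal to Ras, had 55.5, 72.1 and 61.6 CPM in the controls and 40.3, 40.7 and 40.3 CPM with DB2313, a log2 fold change of -0.64 ± 0.10 (edgeR adjusted p = 0.00057). The other was Nck1, an adaptor to the actin skeleton, at -0.30 (edgeR adjusted p = 0.0308), whose call held under 8 of 16 other settings. Many genes of this list are used by myeloid cells too: 24 of the 26 had over 10 CPM in the controls, led by Ptprc at 521 ± 27.1 CPM and Grb2 at 329.7 ± 4.76 CPM (SD, n = 3). Among the DB2313 libraries the summed CPM of the list ran the other way to that of the 9 genes, with a ratio of 0.903 between replicates 1 and 3. In the controls it was 2461.6, 2552.6 and 2460.9, so replicates 1 and 3 were nearly equal. Over all genes tested the ratio of DB2313 replicate 1 to 3 was 0.878 in the longest group by length. The part of gene length in the ratio of the list was not tested.

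Of 16 inhibitors of receptor signalling, 3 were called higher and 2 lower, where 4.66% and 5.94% of all genes tested were. Sla, an adaptor that lowers receptor levels, had 89.1, 87.1 and 89.9 CPM in the controls and 117.3, 124.5 and 132.4 CPM with DB2313 (log2 fold change 0.49 ± 0.07, edgeR adjusted p = 0.00055). Its relative Sla2 rose from 6.94 ± 1.02 to 10.6 ± 1.78 CPM (SD, n = 3 each; log2 fold change 0.61, edgeR adjusted p = 0.0393), a call that held under 10 of 16 other settings. Dgkz, which removes diacylglycerol, was higher at 0.24 (edgeR adjusted p = 0.0392, held under 10 of 16). Its relative Dgka was lower, at 117.2 ± 4.53 against 90.0 ± 3.84 CPM (SD, n = 3 each; log2 fold change -0.38, edgeR adjusted p = 0.0033). Dok2, an adaptor that restrains kinase signals in T and myeloid cells, fell from 121.4 ± 4.74 to 93.9 ± 5.26 CPM (SD, n = 3 each; log2 fold change -0.37, edgeR adjusted p = 0.0046). The most abundant inhibitors in the controls were Cbl, at 337.5 ± 12.0 CPM, and Ptpn6, at 316.9 ± 2.98 CPM.

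Myeloid cells use relatives of the same parts, some of which were more abundant per kb. In the controls Syk, the relative of Zap70, had 677 ± 23.6 CPM and Tyrobp, an adaptor with the same kind of tyrosine motif as the CD3 chains, had 404 ± 5.31 CPM (SD, n = 3). Per kb, Zap70 reached 0.109 to 0.182 of the level of Syk over the 6 libraries, and Lat 0.344 to 0.491 of that of Lat2. Cd3e reached 0.00765 to 0.0111 of the level of Fcer1g, a chain with such a motif that is not its direct counterpart. Of 10 such genes, Tyrobp was higher (log2 fold change 0.21, edgeR adjusted p = 0.0494), a call that held under 7 of 16 other settings. Blnk, an adaptor of B cells and macrophages, was lower (-0.51, edgeR adjusted p = 0.0121), a call that held under 13 of 16. Of 4 partners of CD2, among them its ligand Cd48, 0 were called.

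Markers of other cells were measured beside these genes. Of 12 dendritic cell markers, 9 had over 10 CPM in the controls, with Clec9a, Xcr1 and Cd209a of the list near 0, and all 12 macrophage markers did. Neutrophil markers (11 of 11 over 10 CPM) and mast cell and basophil markers (8 of 11) were also present, while of 7 B cell markers 0 reached 10 CPM, with Ms4a1 at 0 to 2 counts, and of 7 stromal markers 0 did, with 3 at 0 in every library. Of 12 NK and cytotoxic markers, 6 had over 10 CPM in the controls, led by Il2rb, Gzmb and Gzma, while Ncr1, which defines NK cells, was near 0. The called marker of the NK and cytotoxic list was Klrk1 (lower, log2 fold change -0.92, edgeR adjusted p = 9.5e-05). Called higher were 2 of 9 tested mast cell and basophil markers and 4 of 11 neutrophil markers. Of 11 tested dendritic markers, 1 was higher (Clec9a, near 0) and 2 were lower (Itgax and Batf3). Of 12 macrophage markers, 1 was higher and 7 were lower. Over all genes tested, 4.66% were called higher and 5.94% lower. None of 4 tested innate lymphoid cell or 4 tested plasmacytoid dendritic cell markers was called.

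The order of libraries seen in the 9 genes was shared by some of these lists. The summed level of the NK and cytotoxic list was 383.7, 433.8 and 465.2 CPM in the controls and 498.5, 434.7 and 387.8 CPM with DB2313, a ratio of 1.29 between DB2313 replicates 1 and 3. The same ratio was 1.63 for the receptor constant regions, 1.40 for the 9 genes, 1.31 for neutrophil, 1.20 for mast cell and basophil and 1.17 for dendritic cell markers, 1.05 for T cell transcription factors, 0.989 for innate lymphoid cell and 0.934 for macrophage markers. No offset for length or GC was applied to these ratios. The part of these lists in the spread of the 9 genes was not tested.

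**Figure D5:**
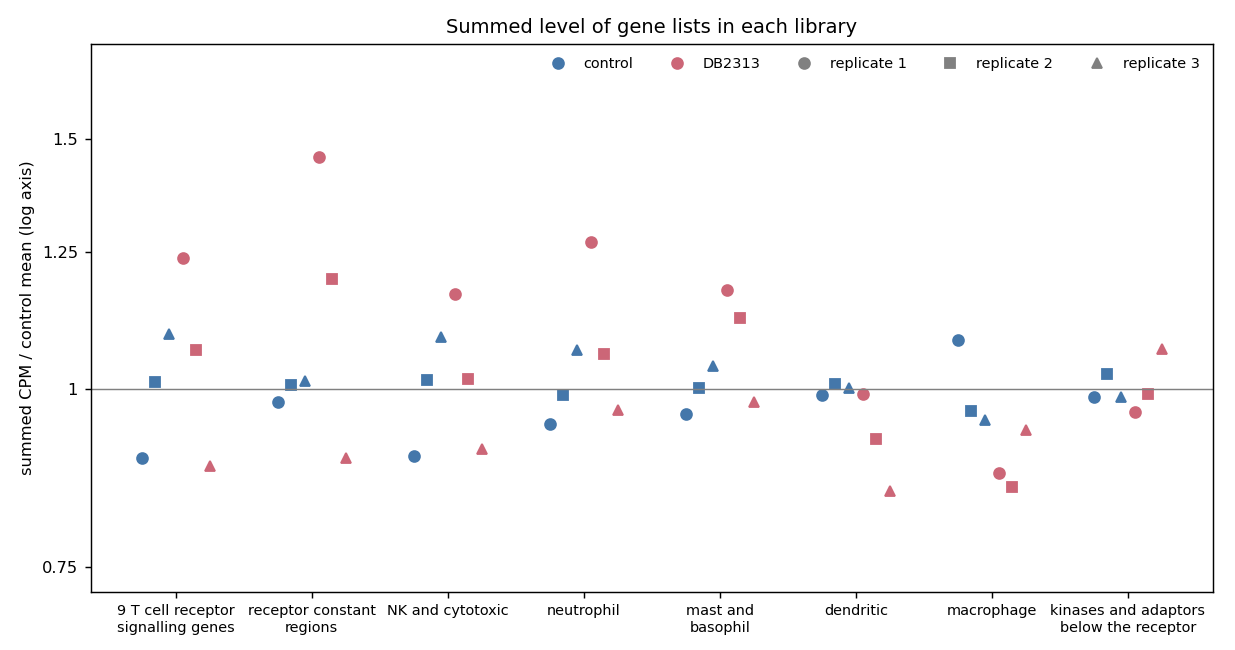
Summed CPM of gene lists in each library divided by the mean of the 3 control libraries (log axis, line at 1); blue is control, red is DB2313, and the shape gives the replicate number. DB2313 replicate 1 stands highest and replicate 3 low for the 9 genes and the receptor constant regions, a gap of 1.40 and 1.63 times. The kinases and adaptors below the receptor run the other way among the DB2313 libraries only, and no offset for gene length was applied.

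Genes outside the set were ranked by how closely their log2(CPM + 1) followed that of the summed CPM of Cd3d, Cd3e and Cd3g over the 6 libraries. Among 3691 protein-coding genes that varied enough to be ranked, the nearest were Ndufs5, Jpt1, Ap2s1, Scand1, Arl2, Sept1, Lamtor4, Ogfod2, Psme2 and Exosc4, with Pearson's r from 0.958 to 0.996. Of the members, Cd247 had an r of 0.961 and Thy1 of 0.948 with that sum, while Cd2 had the lowest, 0.796. The ranking rests on 6 points. The 10 nearest genes had a median of 1854.5 bp and 55.5% GC, against 3988 bp and 49.6% for all genes tested. Cd3d, Cd3e and Cd3g had 1815, 4080 and 3269 bp and 50.0%, 44.5% and 38.5% GC. The ranking was not repeated with offsets, so a part of gene length or base composition in it was not tested.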

How the data were processed

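RNA-seq was analysed from 6 libraries, 3 control and 3 DB2313. The authors deposited raw counts of reads per gene, not normalised, with gene lengths. Per the labels' processing notes, CASAVA 1.8, HISAT2 2.0.5 and featureCounts 1.5.0-p3 were used, whereas the study's methods name LifeScope. Starts and ends equalled those of GENCODE M21 for 98.3% of shared identifiers, so coordinates are GRCm38. Total counts were 16146743 to 19764677 per library, and the errors cover the spread between libraries.

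Counts were tested with edgeR 4.0.16 (R 4.3.3; TMM, filterByExpr, quasi-likelihood test, group as the only term, Benjamini-Hochberg over 14174 genes, threshold 0.05), which was tested on simulated data. The SE was the log2 fold change over the square root of F. Intervals cover 95%. Promoter letters came from RefSeq.

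The members and lists were chosen with earlier results of these data known. The rule named all 9 members, the called pathway genes without overlap (at most the 8 with the largest change), the 2 most abundant genes of each pathway list, and the 10 nearest genes (mean of at least 20 counts, SD of at least 0.2 on the log2(CPM + 1) scale). Other named genes were chosen after their values were seen. Alternatives were DESeq2 size factors, library totals, DESeq2 1.42.0, a minimum mean of 10 counts, no filter, lowess offsets (span 0.3) for length, a replicate block, both, and the omission of each library; offsets for GC, and for length with GC, were added after the data were seen.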

Additional observations from a re-analysis of the deposited data

How the results depend on the processing

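The call of 0 of the 9 genes held under every alternative except one: without DB2313 replicate 3, 1 gene was called higher, and Cd3d passed the threshold at 0.46. Fitted log2 fold changes near 0 changed sign. For Lck the value was -0.023 with the length offset, -0.0013 with a replicate block, -0.026 with both, -0.0038 with the GC offset and -0.023 with length and GC offsets, and for Zap70 it was -0.0043 with the replicate block and length offset. When each library was left out in turn, the log2 fold change ranged from 0.094 to 0.46 for Cd3d, -0.045 to 0.25 for Cd3e, -0.082 to 0.16 for Cd3g, 0.01 to 0.25 for Cd247, -0.079 to 0.11 for Lck, -0.10 to 0.16 for Zap70, -0.14 to 0.10 for Lat, 0.05 to 0.26 for Cd2, -0.012 to 0.19 for Thy1 and -0.026 to 0.38 for Trac. The number of all genes called ranged from 328 to 1097 higher and from 411 to 1311 lower, with the lowest counts when DB2313 replicate 2 was omitted and the highest when DB2313 replicate 3 was, and without the controls it was 361 and 485 (replicate 1), 360 and 436 (replicate 2) and 383 and 471 (replicate 3). The cause was not tested, apart from the fewer samples in each.

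No pairing by replicate number was seen: deviations of same-numbered libraries correlated at -0.02, -0.02 and -0.18. The replicate block called 502 higher and 629 lower, and 0 of the 9 genes were called. Precision is limited by the 3 libraries per group and, for Tox and Trdc, by low counts.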
